A study of Mus musculus with 6 samples.

Results

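Transcripts of airway secretory cells were measured in whole aortic arches of atherosclerosis-prone mice. The genes were Scgb1a1, Scgb3a2, Bpifa1, Sec14l3 and Cyp2a5, which are 5 of the 14298 genes with values, and all 5 were found by symbol. They were chosen by name after earlier results on these libraries had shown them higher in the knockout arches. Their difference between the groups is therefore given as a description with no test. The 3 knockout libraries came from ApoE-/- mice with RBPJflox/flox alleles and Cdh5-CreERT, a tamoxifen-activated recombinase under the promoter of an endothelial cadherin. The 3 control libraries came from ApoE-/- mice with the same RBPJflox/flox alleles and no Cdh5-CreERT. All animals were labelled C57/BL6 adults, were given tamoxifen over 1 week when 8 weeks old and afterwards ate a high-fat diet over 6 weeks. The groups thus differ in the presence of the recombinase as well as in the deletion.

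The conducting airways are lined by ciliated cells and by secretory cells, of which club cells are the main kind in the small airways of the mouse. Secretory cells release secretoglobins, lipid-binding proteins of the BPI fold family, lectins and mucins into the airway lining fluid, and they carry cytochrome P450 enzymes that oxidise inhaled chemicals. The wall of the arch consists of endothelium, smooth muscle and fibroblasts and has no airway epithelium of its own. The trachea, bronchi, oesophagus and thymus lie beside the arch in the chest. In whole-tissue RNA, fewer cells of a type and less RNA per cell cannot be told apart.

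Depth over the 14298 genes was 6181341 to 10072495 reads in the knockout and 5904504 to 7855001 in the control libraries, and levels are normalised CPM (CPM divides each count by the library's size and scales it between libraries). The labelled tissue was checked with smooth muscle genes, and Myh11, the smooth muscle myosin, stood at 6386 to 8318 CPM in the knockout and 3259 to 6075 CPM in the control libraries. Rbpj, the targeted gene, stood at 169, 197 and 212 CPM in the knockout and 174, 191 and 200 CPM in the control libraries (limma, Benjamini-Hochberg adjusted p = 0.923), and a whole-tissue value does not check a deletion in endothelium. Cdh5 stood at 139 ± 51.1 CPM in the knockout and 132 ± 12.7 CPM in the control arches (SD, n = 3 each, adjusted p = 0.962). Within a group, any 2 libraries differed by far more than sampling noise (chi-square over genes, 12.5 to 34.1 times its degrees of freedom), so none was a copy of another. The labels do not say which library came from which animal, so libraries are named by the number in their column, S595, S598 and S599 for the knockout and S591, S592 and S594 for the control.

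All 5 genes stood higher in each knockout library than in any control library. Together they held 569, 926 and 426 reads in knockout S595, S598 and S599, against 10, 27 and 65 reads in control S591, S592 and S594. As a sum of normalised levels this was 67.4 to 89.5 CPM in the knockout and 2.22 to 8.36 CPM in the control libraries. Groups failed to overlap with the knockout higher in 11.3% of all genes, and 3 genes of the whole table passed the limma test (0.0210%, all 3 of them among these 5). These counts are given for scale only, because the same values chose the 5 genes.

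The secretoglobins are small secreted proteins and are described first. Scgb1a1 (ENSMUSG00000024653) encodes the main secretoglobin of club cells, secreted into the airway lining fluid. It had 37.7, 25.6 and 23.8 CPM in knockout S595, S598 and S599, against 1.33, 2.21 and 3.65 CPM in control S591, S592 and S594. The reads behind these values were 247, 265 and 151 in the knockout and 7, 16 and 29 in the control libraries. Knockout S595 was the highest library and control S594 the highest control. The mean was 29.0 ± 7.53 CPM in the knockout and 2.40 ± 1.17 CPM in the control arches (SD, n = 3 each), a log2 fold change of 3.17 on the log2(CPM + 1) scale. Summed reads adjusted for depth were 11.6 times as many in the knockout, with a 95% counting interval of 8.72 to 15.7.

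Scgb3a2 (ENSMUSG00000038791) encodes a second secretoglobin of airway secretory cells. It had 6.01, 4.87 and 3.85 CPM in knockout S595, S598 and S599, against 0.0888, 0.201 and 0.805 CPM in control S591, S592 and S594. These were 39, 50 and 24 reads in the knockout and 0, 1 and 6 reads in the control libraries. Most of the control reads were thus from S594, and the 0 reads of S591 allow a level of up to 0.533 CPM. Values of libraries without a read are not 0 because the deposited scale adds 0.5 reads to every count. The log2 fold change was 2.13, which understates the change of so low a gene, and the ratio of reads was 14.7 with a counting interval of 6.89 to 37.3.

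Bpifa1 (ENSMUSG00000027483) encodes a secreted protein of the BPI fold family that coats the upper airways and takes part in host defence. It had 35.4, 50.6 and 32.5 CPM in knockout S595, S598 and S599, against 0.622, 1.14 and 3.41 CPM in control S591, S592 and S594. Behind these stood 232, 524 and 206 reads in the knockout and 3, 8 and 27 reads in the control libraries. The highest library was knockout S598, and control S594 again led the controls. The means were 39.5 ± 9.72 CPM in the knockout and 1.72 ± 1.48 CPM in the control arches (SD, n = 3 each). The log2 fold change of 4.0 ranked 2 among all 14298 genes, and the ratio of reads was 23.0 with a counting interval of 16.6 to 32.7.

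Sec14l3 (ENSMUSG00000054986) encodes a lipid-binding protein of the SEC14-like family that is expressed in airway epithelium. It was the lowest of the 5 genes in the knockout libraries, with 2.21, 3.33 and 2.75 CPM in knockout S595, S598 and S599, against 0.0888, 0.201 and 0.310 CPM in control S591, S592 and S594. That is 14, 34 and 17 reads in the knockout and 0, 1 and 2 reads in the control libraries. Knockout S595, the highest library for Scgb1a1, was the lowest knockout library here. The log2 fold change was 1.64. With 65 reads in the knockout and 3 in the control arches, the ratio was 19.7 and its counting interval ran from 6.44 to 97.9.

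Cyp2a5 (ENSMUSG00000005547) encodes a cytochrome P450 that hydroxylates coumarin and nicotine and is found in the liver, the olfactory mucosa and the lung of the mouse. It had 5.71, 5.16 and 4.48 CPM in knockout S595, S598 and S599, against 0.0888, 0.201 and 0.186 CPM in control S591, S592 and S594. The reads were 37, 53 and 28 in the knockout and 0, 1 and 1 in the control libraries. Its knockout values had the least spread relative to their mean (5.12 ± 0.613 CPM, against 0.159 ± 0.0609 CPM in the control arches, SD, n = 3 each). The log2 fold change was 2.40 and the ratio of reads 53.6, with a counting interval of 14.5 to 448. Counting intervals cover counting error only and not the spread between animals.

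**Figure D1:**
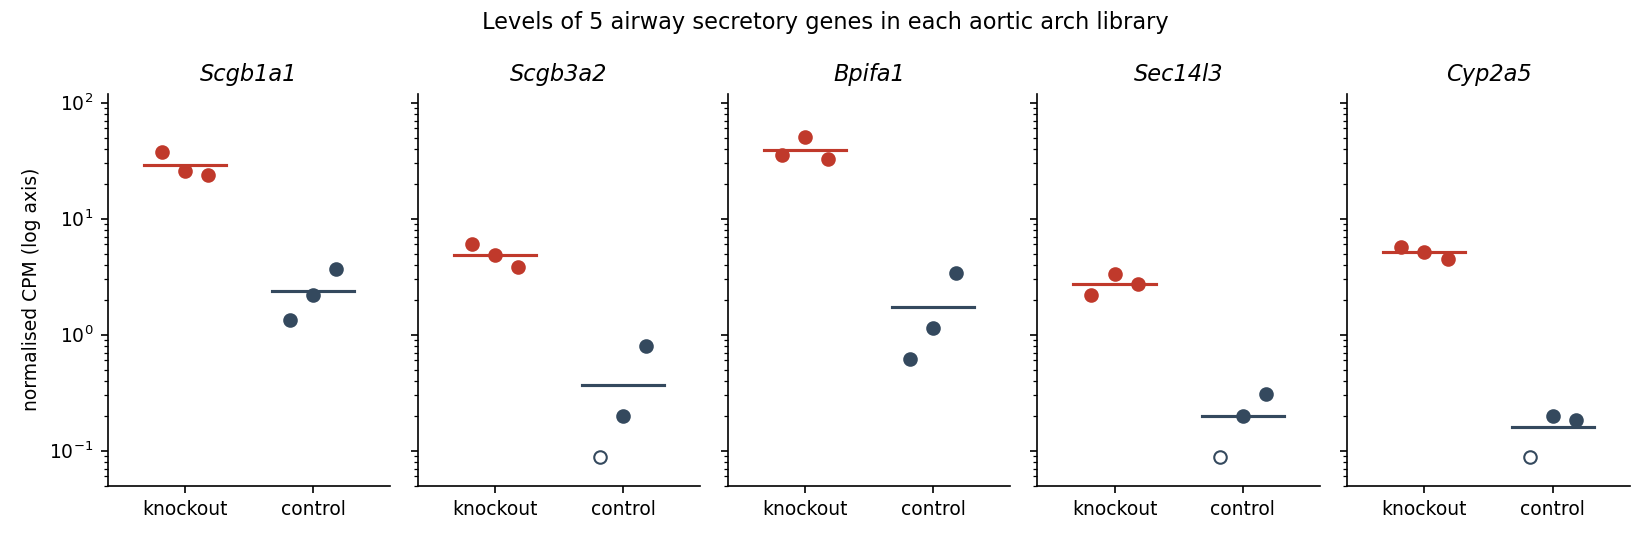
Normalised CPM on a log axis for each of the 5 genes, with 1 point per library, knockout (red) left of control (blue-grey), libraries in number order within a group and lines at the group means; open points are libraries with 0 reads. Every knockout point lies above every control point, and control S594, the rightmost control, is the highest control for 4 of the 5 genes.

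The reads of Cyp2a5 are uncertain in their assignment, because its paralogue Cyp2a4 on the same chromosome is nearly the same in sequence. Longest transcripts of both genes in GENCODE M21 were identical at 1708 of 1738 aligned bases (98.3%), with a longest shared run of 216 bases. Cyp2a4 itself was not analysed here. The 250 bases before the transcription start are printed for both, to show that the likeness extends into the promoter (245 of 249 aligned bases, 98.4%). They are printed for Bpifa1 and Sec14l3 too. These windows are from RefSeq on GRCm38.p6, another build than the NCBIM37 of the submitters' processing notes. The windows of Scgb1a1 and Scgb3a2 are not printed, and their motifs are not reported here. Capitals mark matches, on either strand, to motifs of factors active in airway or liver cells and to the TATA box.
Bpifa1 (chr2:154142630-154142879, plus strand): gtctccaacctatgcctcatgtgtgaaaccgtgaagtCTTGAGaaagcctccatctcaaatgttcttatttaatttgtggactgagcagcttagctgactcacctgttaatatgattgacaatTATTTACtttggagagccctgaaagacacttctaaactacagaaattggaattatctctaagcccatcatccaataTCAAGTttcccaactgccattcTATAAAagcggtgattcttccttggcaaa
Sec14l3 (chr11:4064603-4064852, plus strand): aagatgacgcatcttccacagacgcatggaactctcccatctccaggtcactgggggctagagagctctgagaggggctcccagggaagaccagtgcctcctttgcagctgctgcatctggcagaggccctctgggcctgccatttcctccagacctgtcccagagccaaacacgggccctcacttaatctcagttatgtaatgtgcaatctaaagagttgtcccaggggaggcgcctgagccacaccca
Cyp2a5 (chr7:26835089-26835338, plus strand): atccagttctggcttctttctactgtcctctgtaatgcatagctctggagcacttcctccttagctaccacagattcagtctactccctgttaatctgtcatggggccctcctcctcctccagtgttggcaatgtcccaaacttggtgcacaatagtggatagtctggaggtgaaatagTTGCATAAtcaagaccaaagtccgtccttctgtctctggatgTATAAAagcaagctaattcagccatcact
Cyp2a4 (chr7:26306942-26307191, plus strand): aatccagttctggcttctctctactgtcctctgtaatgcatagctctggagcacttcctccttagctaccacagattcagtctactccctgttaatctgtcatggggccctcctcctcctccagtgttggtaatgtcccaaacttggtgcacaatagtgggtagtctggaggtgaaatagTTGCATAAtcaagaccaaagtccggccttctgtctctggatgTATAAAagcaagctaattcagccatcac
The motifs searched were TGTTTAC and TATTTAC for forkhead factors, TCAAGT and CTCAAG (which can overlap each other) for NKX2-1, TTGCNNAA for C/EBP and TATAAA for the TATA box. They were chosen with these promoters in view. Among 32851 promoter windows of the same length, 5.76% held a forkhead motif, 19.3% an NKX2-1 motif, 9.56% the C/EBP motif and 12.4% the TATA motif. The Bpifa1 window held TATTTAC from 127 to 121 bases before the start, CTCAAG on the reverse strand from 213 to 208, TCAAGT from 51 to 46 and TATAAA from 29 to 24. Cyp2a5 and Cyp2a4 held the C/EBP motif, from 71 to 64 and from 70 to 63 bases before the start, and a TATAAA. The Sec14l3 window held none of these letters. A match is a run of letters and does not show a bound site.

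Per kilobase of exon in GENCODE M21, the order in the knockout arches was Scgb1a1, Bpifa1, Scgb3a2, Cyp2a5 and Sec14l3. Knockout libraries ran from 50.1 to 79.1 CPM per kilobase for Scgb1a1 and from 21.0 to 32.7 for Bpifa1. Scgb3a2 ran from 4.38 to 6.83, Cyp2a5 from 2.16 to 2.75 and Sec14l3 from 0.793 to 1.19 CPM per kilobase in the same libraries. No neighbours in this order overlapped across the knockout libraries. In the control arches Scgb1a1 (2.80 to 7.68 CPM per kilobase) stood above Bpifa1 (0.403 to 2.20), while Bpifa1 overlapped Scgb3a2 (0.101 to 0.915). Cyp2a5 (0.0429 to 0.0970) and Sec14l3 (0.0319 to 0.111) overlapped each other in the controls, at 0 to 2 reads per library.

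The make-up of the airway reads was not the same in every knockout library. Bpifa1 supplied 40.8%, 56.6% and 48.4% of the reads of the 5 genes in knockout S595, S598 and S599, with 95% Wilson intervals of 36.8% to 44.9%, 53.4% to 59.7% and 43.6% to 53.1%. Scgb1a1 supplied 43.4%, 28.6% and 35.4%, with intervals of 39.4% to 47.5%, 25.8% to 31.6% and 31.1% to 40.1%. S595 and S598 were therefore apart beyond counting error for both genes. The smaller members kept shares of 5.4% to 6.85% (Scgb3a2), 5.72% to 6.57% (Cyp2a5) and 2.46% to 3.99% (Sec14l3) across the knockout libraries. In the controls, Bpifa1 took 30.0%, 29.6% and 41.5% and Scgb1a1 70.0%, 59.3% and 44.6% in S591, S592 and S594. With 10, 27 and 65 reads these are wide, such as 10.8% to 60.3% for Bpifa1 in S591.

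**Figure D2:**
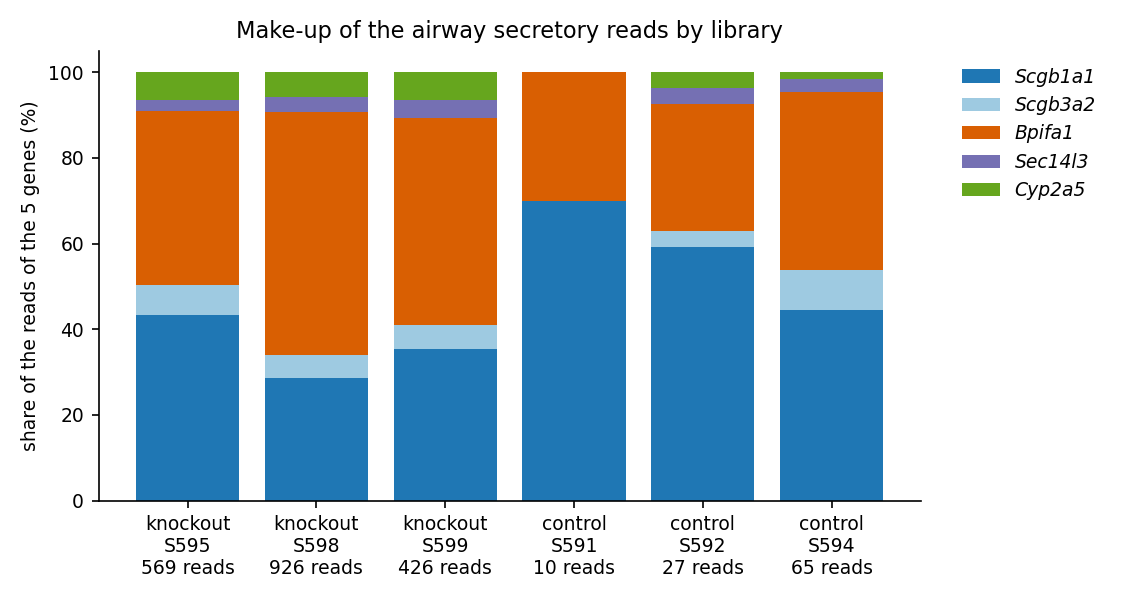
Stacked bars give each gene's share, in percent, of the reads of the 5 genes in 1 library, knockout libraries left of control libraries, with the number of reads under each bar. Bpifa1 is the larger part in knockout S598 (56.6%) and Scgb1a1 the larger in control S591 (70.0% of 10 reads).

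The listing itself bears on these genes. Every gene in the table has more than 1 CPM in at least 3 libraries, and Scgb3a2, Sec14l3 and Cyp2a5 pass through the knockout libraries alone, with all 3 controls under 1 CPM. A gene listed in that way had to differ. Bpifa1 was above 1 CPM in 2 control libraries and Scgb1a1 in all 3. In the whole table, 30 genes (0.210%) were above 1 CPM in the knockout libraries only and 26 (0.182%) in the control libraries only. Of the 30, 3 are among the 5 genes and 4 are other airway secretory genes, namely Scgb3a1, Bpifb1, Reg3g and Ltf. Of the 26 on the control side, 0 are on the airway secretory lists. These lists were written with earlier results of these data known, so the counts are a description and were not tested.

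Because those 4 genes are in the table through the knockout libraries alone, their direction was fixed by the listing, and they are described with no p. Their knockout means of 2.15 to 3.76 CPM were near those of the lower of the 5 genes and far under those of Scgb1a1 and Bpifa1. Scgb3a1, a further airway secretoglobin, had 2.66, 1.98 and 1.81 CPM in the knockout and 0.267, 0.201 and 0.310 CPM in the control libraries (log2 fold change 1.31). Bpifb1, a long-chain relative of Bpifa1 in airway secretions, had 4.49, 1.40 and 3.07 CPM in the knockout and 0.622, 0.469 and 0.310 CPM in the control libraries (log2 fold change 1.37). Reg3g, an antibacterial lectin of mucosal epithelia, had 3.27, 2.94 and 1.81 CPM in the knockout and 0.444, 0.0671 and 0.186 CPM in the control libraries (log2 fold change 1.56).

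Ltf encodes lactoferrin, an iron-binding protein of glandular secretions and neutrophil granules. It had 2.05, 4.58 and 4.64 CPM in the knockout and 0.0888, 0.201 and 0.434 CPM in the control libraries (log2 fold change 1.89). The libraries behind these genes differed: S595 was the highest for Scgb3a1, Bpifb1 and Reg3g and the lowest knockout library for Ltf.

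Other genes of the airway secretory list were measured in both groups, did not pass the limma test and lay on both sides. Many of them are not limited to airway cells. Control means were 643 CPM for Fmo2, higher in the knockout, and 283 CPM for Nupr1, lower in the knockout, against 2.40 CPM for Scgb1a1. Which cells gave these reads was not tested. Cyp2f2, the P450 of club cells that activates naphthalene, had 13.3, 9.79 and 7.79 CPM in the knockout and 2.93, 3.82 and 9.48 CPM in the control libraries (log2 fold change 0.92, adjusted p = 0.229). Control S594 lay between knockout S598 and S599 for it. The membrane mucin gene Muc4, named after its values were seen, stood at 4.28 ± 0.542 CPM in the knockout and 2.48 ± 0.807 CPM in the control arches (SD, n = 3 each, adjusted p = 0.202). Lcn2, an iron-siderophore-binding protein of epithelia and neutrophils, had 108, 40.8 and 29.8 CPM in the knockout and 101, 220 and 247 CPM in the control libraries (log2 fold change −1.77, adjusted p = 0.132), with knockout S595 inside the control range. Slpi, a protease inhibitor of mucosal secretions, had 2.05, 3.42 and 2.91 CPM in the knockout and 3.64, 4.63 and 8.11 CPM in the control libraries (−0.72, adjusted p = 0.227). Gsto1, Creb3l1 and Nupr1 were also lower in each knockout library than in any control library, with log2 fold changes of −0.42, −0.38 and −0.30 (adjusted p = 0.234, 0.160 and 0.201). On the higher side, Retnla had 37.4, 105 and 110 CPM in the knockout and 54.1, 20.6 and 29.5 CPM in the control libraries (1.21, adjusted p = 0.213). Fmo2 had means of 935 CPM in the knockout and 643 CPM in the control arches (0.59, adjusted p = 0.221), without overlap. Lcn2, Slpi, Gsto1, Creb3l1, Nupr1, Retnla and Fmo2 were named after their values were seen.

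Over the list of other airway secretory genes, 32 of 55 were measured and limma called 0 in either direction (0.0210% of all genes). At an unadjusted p of 0.05, 8 were higher and 5 lower, but 4 of the 8 are the genes listed only through the knockout libraries, which had to differ. Among the other 28 genes 4 were higher and 5 lower, and the median log2 fold change was 0.21, against −0.02 over all genes tested. Across all genes the unadjusted shares were 8.04% higher and 12.0% lower. DESeq2 called 2 of the list higher, Ltf (listed only through the knockout libraries) and Retnla, the resistin-like gene, and 0 lower, where it called 2.01% of all genes higher and 4.29% lower. In edgeR and limma-voom the count was 0 for the list and 0 for all 14298 genes.

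**Figure D3:**
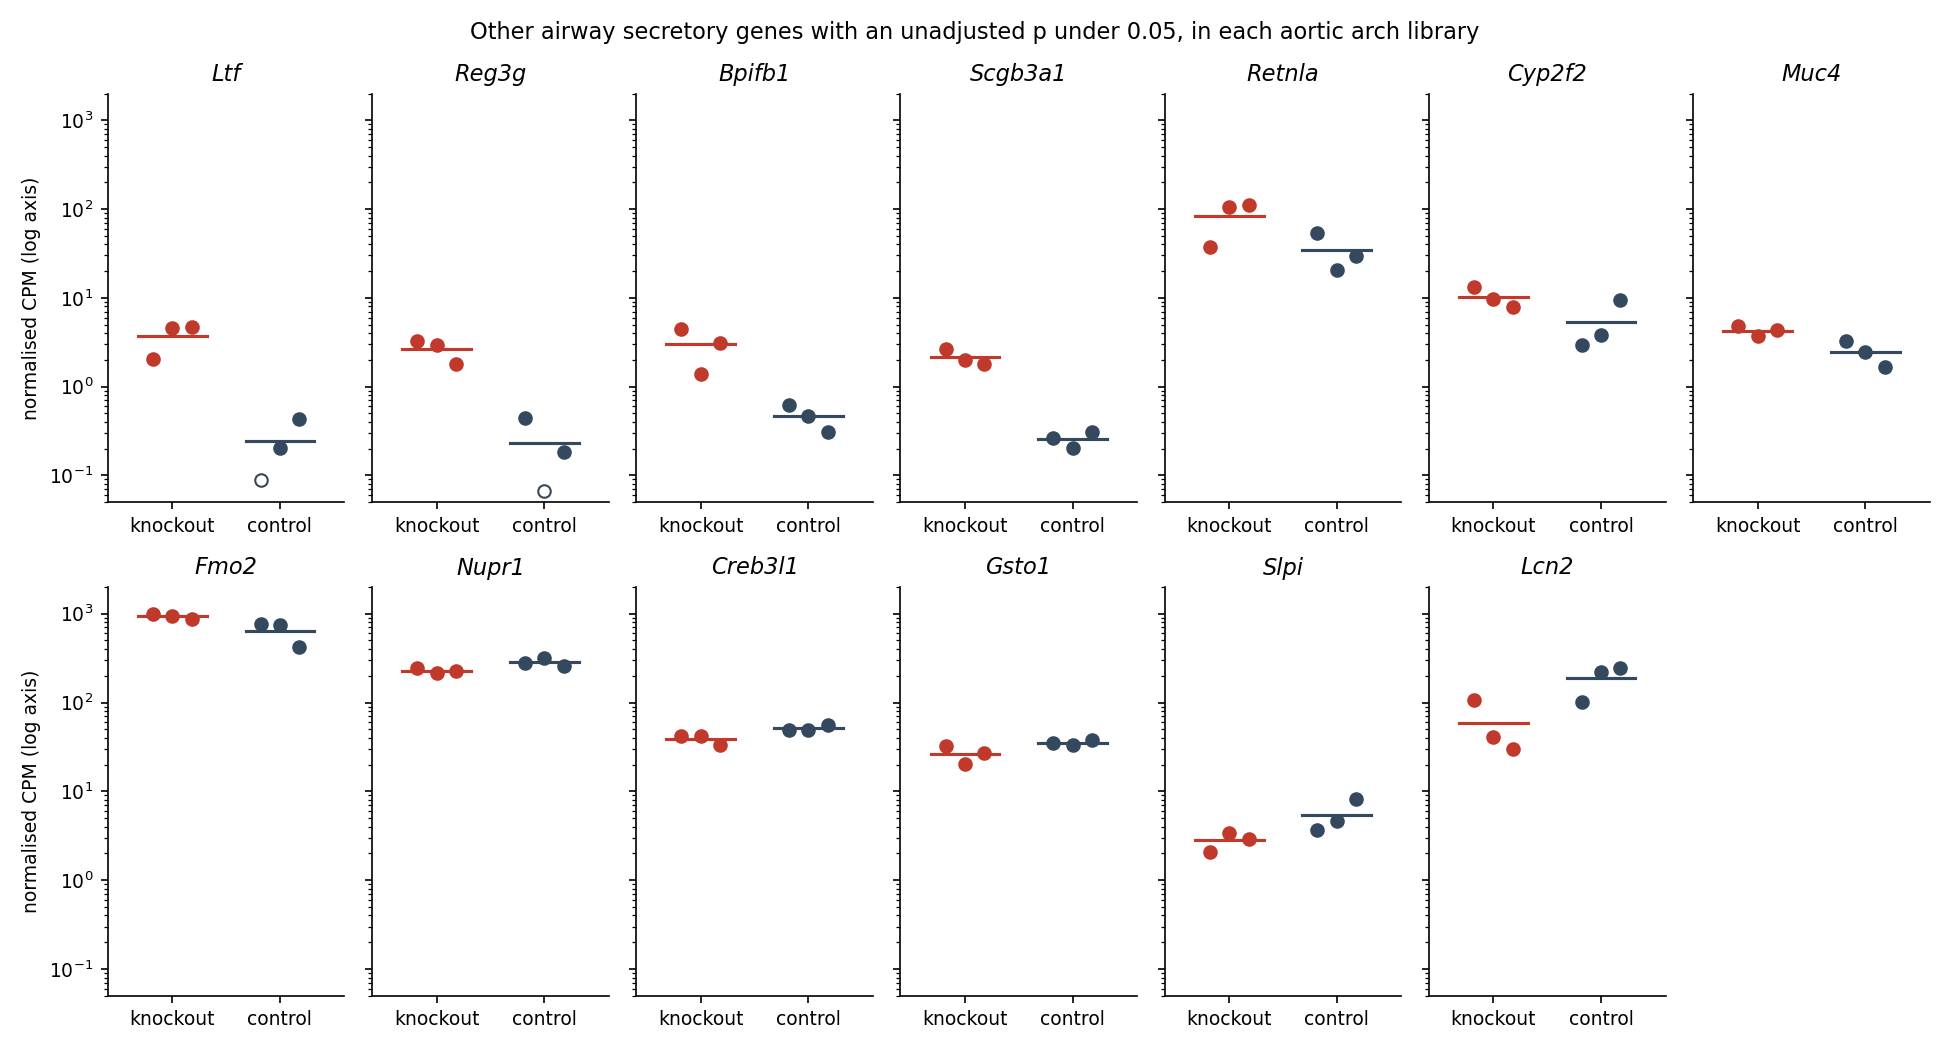
Normalised CPM on a log axis for the 13 other airway secretory genes with an unadjusted limma p under 0.05 in either direction, ordered by log2 fold change, with 1 point per library, knockout (red) left of control (blue-grey), lines at the group means and open points for 0 reads. The first 8 have the higher mean in the knockout, 4 of them listed only through the knockout libraries, and the last 5, Nupr1 to Lcn2, have the lower mean in the knockout.

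The relatives of the 5 genes by family lay on both sides. Among 30 paralogues in the secretoglobin, BPI fold, SEC14-like and Cyp2 families, 9 were measured and 0 passed the limma test (0.0210% of all genes). At an unadjusted p of 0.05, 3 were higher and 3 lower, but Scgb3a1 and Bpifb1, 2 of the 3 higher, were listed only through the knockout libraries. Among the other 7 genes 1 was higher and 3 lower (8.04% and 12.0% of all genes), with a median log2 fold change of −0.27. The lipid-transfer genes Lbp and Pltp, members of the BPI fold family that are not airway genes, had log2 fold changes of −1.02 and −1.01, and the SEC14-like genes Sec14l1, Sec14l2 and Sec14l4 of −0.27, −0.27 and −0.32. DESeq2 called 2 of the paralogues lower and 0 higher (4.29% and 2.01% of all genes). EdgeR and limma-voom called 0 of the paralogues and 0 of all genes.

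Genes of the other airway cells were examined beside the secretory ones. Of 42 ciliated-cell symbols 11 were measured, with 0 called by limma (0.0210% of all genes) and a median log2 fold change of 0.38. The symbols include Dnai1 and Dnai2, other names of Dnaic1 and Dnaic2, which are listed too. At an unadjusted p of 0.05, 2 were higher and 0 lower, against 8.04% and 12.0% of all genes. Tppp3, a tubulin-binding protein of ciliated and other cells, stood at 83.2 ± 3.51 CPM in the knockout and 60.7 ± 3.74 CPM in the control arches (log2 fold change 0.45, adjusted p = 0.107). Dnah5, an outer dynein arm heavy chain, had 3.88, 2.75 and 3.38 CPM in the knockout and 1.87, 2.48 and 0.805 CPM in the control libraries (adjusted p = 0.221). The measured ciliated genes summed to 135 to 148 CPM in the knockout and 100.1 to 117 CPM in the control libraries, with Tppp3 the largest part. The master regulator gene of ciliated cells, Foxj1, was not analysed here.

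The measured genes of the basal, alveolar and general epithelial lists gave no common direction. Of 16 basal genes 6 were measured with a median of −0.16. They summed to 387 to 520 CPM in the knockout and 318 to 404 CPM in the control libraries, most of it from Dsp. The 2 with the smallest p differed in sign. Perp, a desmosomal protein gene, stood at 57.4 ± 7.85 CPM in the knockout and 21.9 ± 9.93 CPM in the control arches, and Pdpn, a mucin-type protein of lymphatic and alveolar cells, at 18.9 ± 3.24 CPM in the knockout and 67.5 ± 28.98 CPM in the control arches (SD, n = 3 each, adjusted p = 0.107 for both). Of 20 alveolar genes 10 were measured with a median of −0.14, and 0 were higher and 3 lower at an unadjusted p of 0.05, against 8.04% and 12.0% of all genes. They summed to 238 to 280 CPM in the knockout and 249 to 350 CPM in the control libraries. Dram1 had a log2 fold change of −0.62 (adjusted p = 0.107) and Etv5 of −0.45 (adjusted p = 0.140). The basal markers Krt5 and Trp63 and the alveolar markers Sftpc, Sftpb and Ager were not analysed here.

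Of 30 general epithelial genes 12 were measured, with a median of 0.10 and sums of 424 to 573 CPM in the knockout and 301 to 439 CPM in the control libraries. Most of these sums was the gene Dsp, which the basal list holds too. Its levels were 304, 425 and 393 CPM in the knockout and 325, 294 and 200.5 CPM in the control libraries. Spint1, a protease inhibitor of epithelia, stood at 0.928 ± 0.338 CPM in the knockout and 2.76 ± 0.894 CPM in the control arches (SD, n = 3 each, adjusted p = 0.130), and the tight junction gene Lsr had a log2 fold change of −0.34 (adjusted p = 0.261). The epithelial cadherin gene Cdh1 had 1.29, 4.0 and 1.02 CPM in the knockout and 0.444, 1.81 and 2.29 CPM in the control libraries, which overlap, and the keratin gene Krt18 had 9.36, 24.9 and 16.6 CPM in the knockout and 13.4, 8.92 and 5.64 CPM in the control libraries. Epcam and Krt8 were not analysed here. Of 20 airway transcription factor genes 6 were measured, with a median of −0.45. Cebpb had a log2 fold change of −0.67 (adjusted p = 0.121) and Gata6 of 0.47 (adjusted p = 0.122), while Nkx2-1 and Foxa2 were not analysed here.

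Over these 6 airway lists together, without the 5 genes, 75 of 175 symbols (Dnai1 and Dnai2 included) were measured. Limma called 0 of them (0.0210% of all genes). At an unadjusted p of 0.05, 12 were higher and 12 lower, or 8 and 12 of the 71 genes that were not listed through the knockout libraries alone. For all genes these shares were 8.04% and 12.0%. The groups did not overlap for 10 with the knockout higher and for 12 with the knockout lower (6 and 12 of the 71), which for all genes was 11.3% and 14.2%. DESeq2 called 5 higher, Ltf among them, and 3 lower (2.01% and 4.29% of all genes). EdgeR and limma-voom called 0 of them and 0 of all 14298 genes. Without control S591, limma called 7 of the 75, with Scgb3a1, Reg3g, Ltf, Perp and Tppp3 higher and Pdpn and Napsa lower, and it called 671 genes in all. The first 3 of these were listed only through the knockout libraries.

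**Figure D4:**
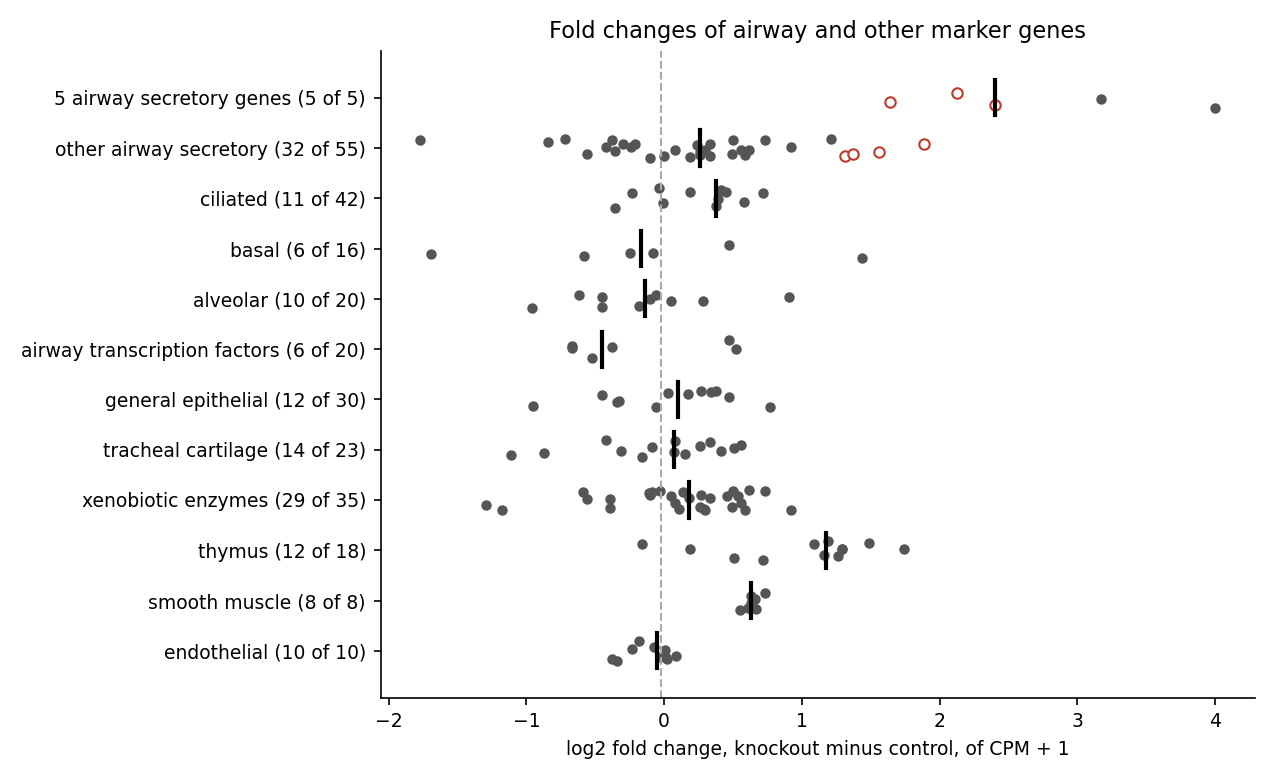
Points give the log2 fold change, knockout minus control, of each measured gene by list, with the number measured of the number listed in brackets; vertical bars are list medians, the dashed line is the median of all genes (−0.02), and open red points are genes under 1 CPM in all 3 control libraries. The 5 airway secretory genes, chosen for this difference, lie between 1.64 and 4.0, and the other airway lists have medians from −0.45 to 0.38.

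Markers of tissues that lie near the arch were followed over the same libraries. Thymus genes (12 of 18 measured) summed to 59.2, 328 and 145 CPM in knockout S595, S598 and S599, against 98.3, 56.5 and 75.8 CPM in control S591, S592 and S594. Dntt, the terminal transferase of immature lymphocytes, had 1.29, 23.5 and 7.16 CPM in the knockout and 1.69, 0.872 and 1.43 CPM in the control libraries, and Satb1, a chromatin organiser of T cells, had 11.6, 59.2 and 22.9 CPM in the knockout and 10.9, 11.1 and 8.11 CPM in the control libraries. Limma called 0 of the 12 (0.0210% of all genes) and DESeq2 4 of them higher (2.01% of all genes). Their median log2 fold change was 1.17. Thymus transcripts were thus high in S598 and S599 and not in S595. The 5 airway genes, chosen for being higher in the knockout, summed to 87.0, 89.5 and 67.4 CPM in S595, S598 and S599. The part of thymus tissue in the airway secretory reads was not tested.

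Cartilage genes, which the tracheal wall shares with other cartilage, had 14 of 23 symbols measured, with Cnmd listed also as Lect1. They summed to 354 to 472 CPM in the knockout and 400 to 551 CPM in the control libraries. Their median log2 fold change was 0.07 and limma called 0 (0.0210% of all genes). At an unadjusted p of 0.05, 0 were higher and 1 lower, against 8.04% and 12.0% of all genes. Acan, the cartilage proteoglycan gene, had 73.0, 27.3 and 39.1 CPM in the knockout and 30.1, 34.3 and 22.7 CPM in the control libraries, and Col2a1, the main cartilage collagen gene, 4.64, 1.49 and 4.95 CPM in the knockout and 8.44, 10.9 and 3.53 CPM in the control libraries. Prg4 (log2 fold change −1.11, adjusted p = 0.160) and Cytl1 (0.51, adjusted p = 0.313) had the smallest p. Col9a1 and Matn1 were not analysed here.

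Of the gland list 3 of 14 genes were measured, Ltf among them, and Amy1 had a log2 fold change of 0.26 (adjusted p = 0.784). Squamous epithelium of the kind that lines the oesophagus had 3 of 16 measured, at sums of 20.4 to 28.7 CPM in the knockout and 43.4 to 76.2 CPM in the control libraries. Anxa8 had a log2 fold change of −1.63 (adjusted p = 0.107) and Sbsn of −0.07 (adjusted p = 0.920). The thyroid list had 1 of 13 measured, Tshr, at 3.58 to 5.90 CPM in the knockout and 3.15 to 11.1 CPM in the control libraries (adjusted p = 0.911). None of the 3 parathyroid and 12 skeletal muscle genes was analysed here. The part of any of these tissues in the airway secretory reads was not tested.

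Cardiac muscle genes (7 of 10 measured) summed to 51.2, 35.2 and 25.7 CPM in knockout S595, S598 and S599, against 81.6, 19.2 and 15.3 CPM in control S591, S592 and S594. Tnnt2 (log2 fold change 0.77, adjusted p = 0.539) and Myh7 (−0.21, adjusted p = 0.813) had the smallest p. Control S591, with the most cardiac transcripts, had the fewest reads of the 5 airway genes, and the part of this in the result was not tested. Among wall markers, the 8 smooth muscle genes summed to 20900 to 29100 CPM in the knockout and 11970 to 20840 CPM in the control libraries. Their median log2 fold change was 0.63, with 0 called by limma (0.0210% of all genes). Lmod1 had a log2 fold change of 0.67 (adjusted p = 0.147) and Smtn of 0.63 (adjusted p = 0.160), while DESeq2 called 3 of the 8 higher (2.01% of all genes). The 10 endothelial genes had a median of −0.05, with Vwf at −0.38 (adjusted p = 0.345) and Tie1 at −0.34 (adjusted p = 0.351).

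**Figure D5:**
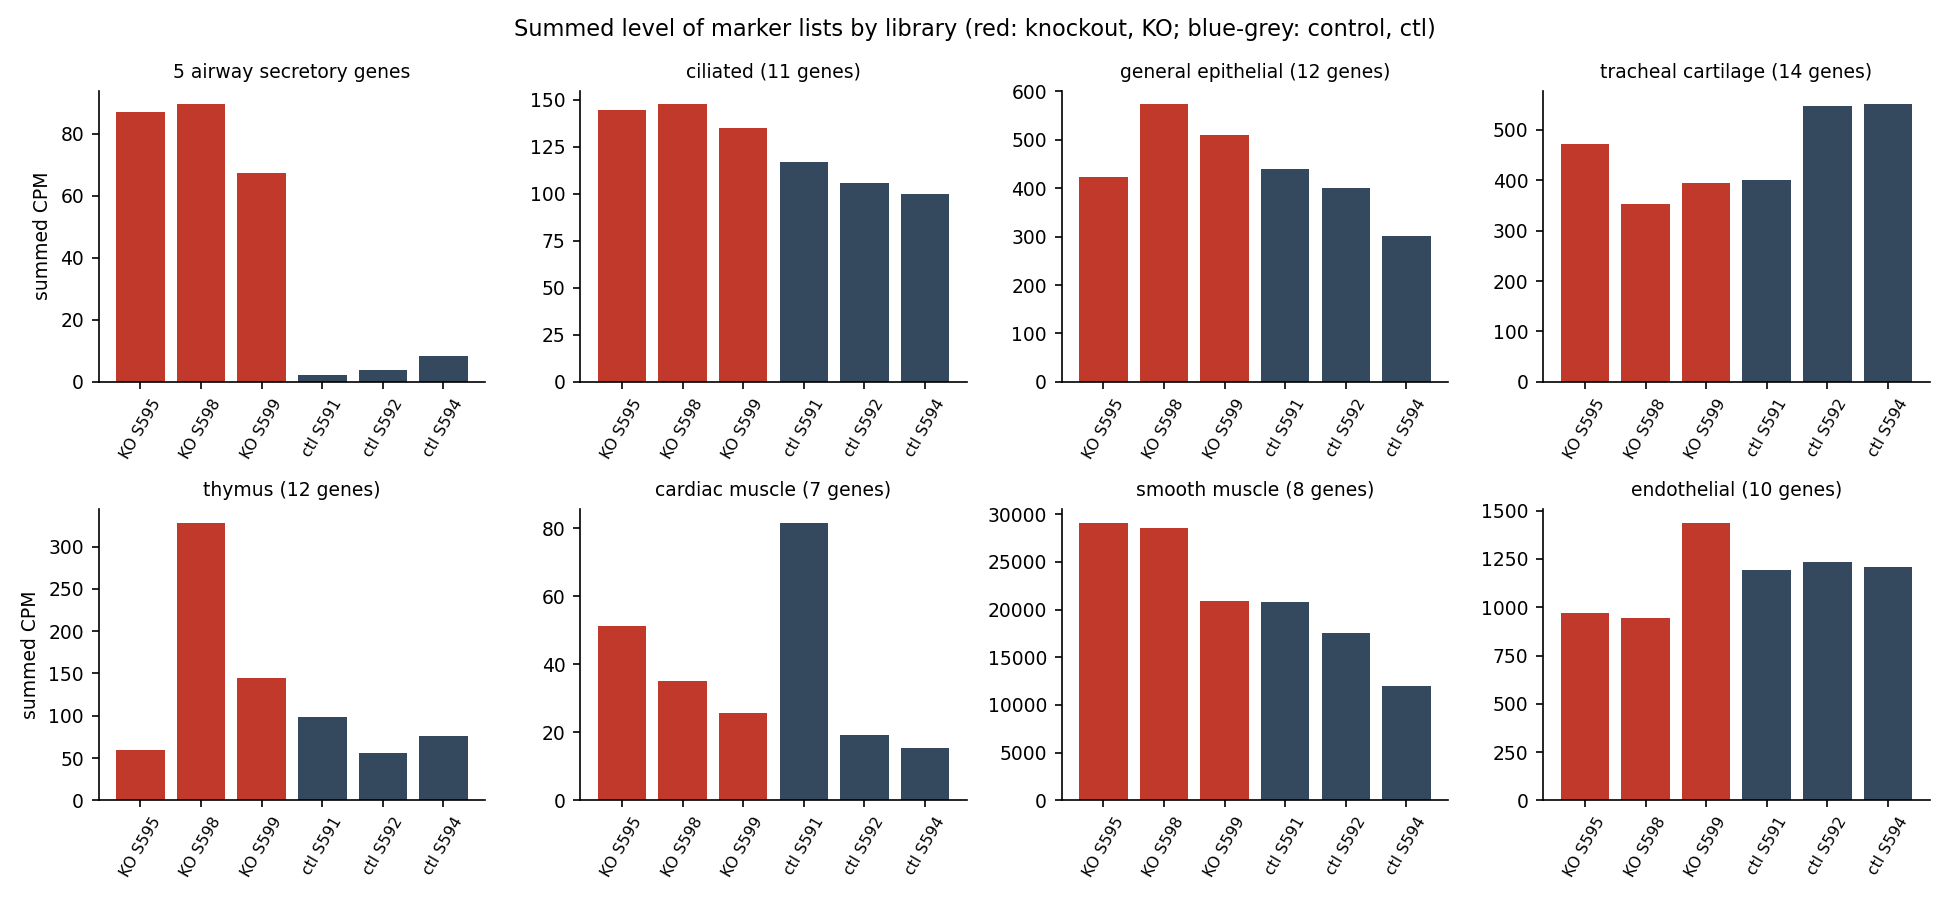
Bars give the summed CPM of the measured genes of each list in each library, knockout (red) left of control (blue-grey), on a linear axis from 0 that differs between panels. The 5 airway secretory genes are at 67.4 to 89.5 CPM in the knockout and 2.22 to 8.36 CPM in the control libraries. The thymus sum is high in S598 and S599 alone among the 6 libraries. Most of the general epithelial sum is from Dsp.

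Cyp2a5 is also a liver gene and an enzyme of foreign-chemical metabolism, so those lists were set beside it. Of 15 liver genes 3 were measured. Cyp2e1, a P450 of liver and fat, had 112, 22.3 and 24.0 CPM in the knockout and 58.5, 32.4 and 106 CPM in the control libraries (log2 fold change −0.56, adjusted p = 0.673), and Ahsg, a plasma protein gene of the liver, had a log2 fold change of −0.24 (adjusted p = 0.481). The albumin gene Alb was not analysed here.

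Of 35 genes of xenobiotic metabolism 29 were measured, with 0 called by limma (0.0210% of all genes) and a median of 0.18. At an unadjusted p of 0.05, 4 were higher and 4 lower, against 8.04% and 12.0% of all genes. The conjugating enzyme gene Ugt1a7c, whose reads may be shared with the overlapping genes of its locus, stood at 7.70 ± 0.712 CPM in the knockout and 20.6 ± 5.08 CPM in the control arches (log2 fold change −1.29, adjusted p = 0.107). Of the same locus, Ugt1a6a had a log2 fold change of −0.11. Ugt1a6b, listed only through the knockout libraries and not on the xenobiotic list, had 1.06. Ahr, the receptor for aryl hydrocarbons, stood at 12.1 ± 2.38 CPM in the knockout and 29.1 ± 8.14 CPM in the control arches (−1.18, adjusted p = 0.107, SD, n = 3 each). Ugt1a7c and Ahr had lower values in every knockout library than in any control library, as had 4 of the 29 genes in all. For 5 of the 29 every knockout library was higher, and over all genes the shares were 14.2% lower and 11.3% higher. Of the 29, 19 had a positive and 10 a negative log2 fold change. The list summed to 2647 to 3105 CPM in the knockout and 2035 to 2638 CPM in the control libraries.

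The genes most like the 5 were sought by Pearson's r of log2(CPM + 1) over the 6 libraries, among 215 other genes whose SD on that scale was at least 1. The same 3 genes, Ltf, Ppp1r1b and Tcap, came first for each of the 5. Their r was 0.908 to 0.983 for Ltf, 0.921 to 0.949 for Ppp1r1b and 0.907 to 0.921 for Tcap, while between the 5 genes it was 0.961 to 0.997. The groups do not overlap for any of these genes, so the libraries fall into separate clusters and r is a description of that separation. Ppp1r1b, a protein phosphatase inhibitor, had 11.3, 13.9 and 13.6 CPM in the knockout and 3.64, 1.68 and 4.52 CPM in the control libraries. Tcap, a cap protein of titin in striated muscle, had 86.1, 82.8 and 99.6 CPM in the knockout and 26.4, 11.1 and 29.5 CPM in the control libraries (limma adjusted p = 0.107 for both). Both were picked for likeness to genes chosen for this contrast, so this p is not an independent test.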

How the data were processed

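Per the labels' protocols, polyA RNA of whole arches was made into TruSeq libraries, and 3 knockout and 3 control samples were grouped by title. The deposited columns name the group and a library number only. Tools named, without roles, in the submitters' processing notes are RSEM 1.16, Bowtie 0.12.7, cutadapt 1.6.1, CASAVA 1.8, edgeR and limma, with the build NCBIM37. Whether counting used strand is not given there. Per the design text, RNA came from 3 mice of each genotype.

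The deposited values are a normalised signal per gene and library on a linear scale. Checked on the values, each equals (reads + 0.5) times 1 constant per library. Within 0.01 of a whole number, 100% of values gave whole reads. TMM factors of these reads matched the scaling within 2.58e-10, so the values are CPM of TMM-scaled libraries. One read was worth 0.0964 to 0.178 CPM. Symbols were matched by Ensembl identifier in GENCODE M21, for 13828 of 14298 genes.

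Groups were compared by limma 3.58.1 (R 4.3.3) on log2(CPM + 1) with an intensity trend, genotype alone, all 6 libraries, two-sided, Benjamini-Hochberg over 14298 genes, threshold 0.05. A filter of 1 CPM in 3 libraries removed 0 genes. On the recovered reads, edgeR 4.0.16 quasi-likelihood called 0 genes, and DESeq2 1.42.0 and limma-voom were run as alternatives. Read ratios divide summed reads by summed scaled library sizes, with exact binomial (Clopper-Pearson) 95% intervals, and limits for 0 reads use 3 reads. As the protocol names no molecular identifiers, reads are not independent molecules and intervals cover counting error only.

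The 5 genes, the 19 gene lists (textbook knowledge), tests and naming rules were chosen with earlier results of these data known. Named were the 5 genes, for each the 3 most like it, the 5 others with the largest fold change, the 2 of each list with the smallest p, fixed cell type markers, Rbpj and Cdh5. Any other gene, such as Muc4, Retnla, Fmo2, Lcn2, Slpi, Gsto1, Creb3l1, Nupr1, Lbp, Pltp, Sec14l1, Sec14l2, Sec14l4, Dsp, Ugt1a6a, Ugt1a6b and Napsa, was named after its values were seen.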

Additional observations from a re-analysis of the deposited data

How the results depend on the processing

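The 5 genes kept a positive log2 fold change under every alternative run, while its size depended on how values near 0 were treated. With a pseudocount of 0.5 it was 2.71 for Scgb3a2, 2.22 for Sec14l3 and 3.09 for Cyp2a5, and with 0.1 it was 3.62 for Scgb1a1, 3.73 for Scgb3a2, 4.73 for Bpifa1, 3.31 for Sec14l3 and 4.36 for Cyp2a5. On the recovered reads, edgeR gave 3.84 for Scgb3a2, 4.12 for Sec14l3 and 5.52 for Cyp2a5. DESeq2 gave 3.61 for Scgb1a1, 3.93 for Scgb3a2, 4.29 for Sec14l3 and 5.76 for Cyp2a5, and limma-voom gave 3.61, 4.32, 3.98 and 5.10 for the same genes and 4.78 for Bpifa1. With 1 library left out it ran from 2.93 to 3.43 for Scgb1a1, 1.99 to 2.35 for Scgb3a2, 3.69 to 4.42 for Bpifa1, 1.54 to 1.75 for Sec14l3 and 2.33 to 2.47 for Cyp2a5. Without S598 and S599, S595 is assumed to vary like the controls. From this 1 library the log2 fold change was 3.56 for Scgb1a1, 2.4 for Scgb3a2, 3.87 for Bpifa1, 1.42 for Sec14l3 and 2.53 for Cyp2a5. A mean of at least 5 CPM leaves out Scgb3a2, Sec14l3 and Cyp2a5, so it gives no value for them.

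The number of genes limma called, 3, was 0 with a pseudocount of 0.5 or 0.1, with the filter at 5 CPM and without S598 and S599, and edgeR and limma-voom called 0 (2899 and 2988 at an unadjusted p of 0.05, 2860 in limma). DESeq2 called 900. With 1 library left out it ran from 0 to 671, the highest without control S591. Of the other airway genes, DESeq2 called 8, and leaving out 1 library gave 0 to 7. The causes of these changes were not tested. No paired analysis was possible because the columns carry library numbers and not the replicate numbers of the labels. At 0 to 6 control reads per library, depth limits the control levels of Scgb3a2, Sec14l3 and Cyp2a5.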

Other observations

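Among the genes with the largest log2 fold changes beside the 5, the clock output gene Dbp had 112, 57.1 and 85.6 CPM in knockout S595, S598 and S599, against 18.6, 7.71 and 38.5 CPM in control S591, S592 and S594 (log2 fold change 2.13, limma adjusted p = 0.119). The leptin gene Lep, a hormone of white fat, had 8.90, 18.9 and 24.8 CPM in the knockout and 13.4, 1.14 and 0.929 CPM in the control libraries (2.14, adjusted p = 0.184), so control S591 lay inside the knockout range. The gene with the largest log2 fold change of the table, ENSMUSG00000091282, has no symbol in the annotation used and had 1.90, 228 and 40.0 CPM in the knockout and 0.0888, 1.01 and 0.0619 CPM in the control libraries (4.51, adjusted p = 0.143). Gm11847 had 0.685, 111 and 52.1 CPM in the knockout and 0.0888, 0.872 and 33.9 CPM in the control libraries (2.38, adjusted p = 0.496).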
